A study of Mus musculus with 18 samples.

Results

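The Src-family kinases Fgr, Lyn, Fyn, Lck, Blk, Src and Yes1 and the related kinase Syk were followed in RNA-seq libraries of bone marrow progenitors. These 8 genes were taken by symbol from the deposited expression tables, in which 18169 genes are listed for all 3 populations, and all 8 were present in every table. The populations were multipotent progenitors (MPPs), common dendritic cell progenitors (CDPs) lacking CD115 (CD115- CDPs) and common lymphoid progenitors (CLPs), sorted from C57BL/6 mice aged 6 to 8 weeks. WT mice were Trim33 fl/fl and carried no Cre. The other mice were Trim33 fl/fl Cre-ERT2, and their libraries are labelled KO. Each population had 3 WT and 3 KO libraries from separate biological repeats, 18 libraries in all. The Cre is not restricted to blood cells and acts after tamoxifen, with which the study describes both genotypes as treated. Since WT mice lack the Cre, its presence and the loss of Trim33 cannot be told apart.

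Src-family kinases are membrane-anchored tyrosine kinases. When an immune receptor is engaged they phosphorylate the ITAM motifs of its signalling chains, and Syk docks on those motifs and passes the signal to adaptors and phospholipases. The same kinases phosphorylate ITIM motifs of inhibitory receptors, which recruit phosphatases that end the signal, while the kinase Csk holds Src-family kinases inactive and the phosphatase CD45 (Ptprc) releases them. Lyn and Fgr are best known from myeloid and B cells, Lck from T cells, Blk from the B lineage, Fyn from lymphocytes, and Src and Yes1 from most tissues.

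The level of each gene is given as FPKM, the fragments counted on it per kilobase and per total of mapped fragments, which allows genes to be compared per length. The log2(FPKM + 1) values of genes whose mean reached 0.5 FPKM were tested with limma, and p-values were adjusted over all genes tested. A gene passed the test at an adjusted p of at most 0.05 and was called where its log2 difference was also at least 1 in size. Log2 differences on this scale understate the change of genes with low values. In bulk libraries fewer cells of a type and less RNA per cell cannot be told apart.

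The sorted populations carried the defining transcripts of their gates in part. Flt3 was high throughout, Il7r (the CD127 chain) was highest in CLPs with a WT mean of 43.2 FPKM against 5.55 FPKM in MPPs, and Kit was highest in WT MPPs at 72.7 FPKM. Csf1r, which encodes CD115, nevertheless had a higher mean in WT CD115- CDPs (77.6 FPKM) than in WT MPPs (14.8 FPKM) or WT CLPs (21.7 FPKM). That CDP mean includes the library WT 3. Its 7 monocyte and macrophage genes, Csf1r among them, summed to 2309 FPKM, against 338 and 234 FPKM in WT 1 and 2. Both CD115- CDP libraries numbered 3 stood apart, since a list of 8 neutrophil genes summed to 4276 FPKM in the WT library and 4318 FPKM in the KO library, against 679 to 955 FPKM in the other 4 libraries. By qPCR the study found efficient deletion of Trim33 after tamoxifen in bone marrow cells lacking lineage markers. Here Trim33, on chromosome 3, gave only a weak check of the label, because the FPKM covers the whole transcript and not the deleted part alone. It was 8.78 to 10.42 FPKM in WT MPPs and 9.71, 11.66 and 4.80 FPKM in KO MPPs, and its difference did not pass the test in any population (limma, adjusted p = 0.63 for MPPs, 0.528 for the CDPs and 0.255 for CLPs). With the library number as a block, which pairs WT and KO libraries of one number, its log2 difference of -0.74 in CD115- CDPs passed at an adjusted p of 0.0258. The library KO 3 of MPPs also differed from the other KO MPP libraries, and results that rest on these libraries are given with and without them.

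Promoter windows of the genes that the comparisons turn on were taken from RefSeq (GRCm38.p6), from 250 bases before to 50 bases after the annotated start. Windows were held for 6 of the 8 genes, with 2 start sites each for Lck and Syk. The windows of Fgr, Fyn and Lck are shown because Fgr and Fyn were lower in KO CLPs and Lck was not. Each is written 5' to 3' on the strand of the gene, in lower case with the GGAA core of ETS-family factors in capitals, or TTCC where the core lies on the other strand. Fgr lies at chr4:132973845-132974144 on the plus strand, Fyn at chr10:39369549-39369848 on the plus strand, and the downstream and upstream start sites of Lck at chr4:129558323-129558622 and chr4:129573592-129573891 on the minus strand.
Fgr: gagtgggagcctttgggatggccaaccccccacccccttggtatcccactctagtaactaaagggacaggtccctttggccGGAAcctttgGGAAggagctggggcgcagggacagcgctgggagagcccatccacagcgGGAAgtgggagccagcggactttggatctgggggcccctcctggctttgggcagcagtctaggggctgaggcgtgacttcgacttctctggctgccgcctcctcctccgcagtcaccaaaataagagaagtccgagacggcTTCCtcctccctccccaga
Fyn: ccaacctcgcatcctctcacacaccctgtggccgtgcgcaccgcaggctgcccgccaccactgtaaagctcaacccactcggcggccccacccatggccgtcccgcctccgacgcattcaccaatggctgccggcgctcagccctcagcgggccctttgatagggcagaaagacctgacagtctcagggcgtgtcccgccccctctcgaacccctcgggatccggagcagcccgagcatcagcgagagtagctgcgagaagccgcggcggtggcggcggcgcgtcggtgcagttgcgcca
Lck downstream: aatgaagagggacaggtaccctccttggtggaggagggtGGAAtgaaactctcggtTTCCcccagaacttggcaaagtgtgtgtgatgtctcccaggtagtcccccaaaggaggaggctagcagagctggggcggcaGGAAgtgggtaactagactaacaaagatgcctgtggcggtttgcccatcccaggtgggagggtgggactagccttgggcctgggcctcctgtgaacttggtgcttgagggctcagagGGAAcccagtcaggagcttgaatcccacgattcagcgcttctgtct
Lck upstream: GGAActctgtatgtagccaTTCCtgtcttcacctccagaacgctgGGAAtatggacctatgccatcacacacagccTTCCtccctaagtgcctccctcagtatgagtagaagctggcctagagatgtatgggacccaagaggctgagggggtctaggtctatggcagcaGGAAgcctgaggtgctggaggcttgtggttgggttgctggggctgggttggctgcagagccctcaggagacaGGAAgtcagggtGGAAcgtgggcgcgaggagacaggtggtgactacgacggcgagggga
The Fgr window held 4 GGAA cores on either strand, that of Fyn 0, and those of Lck 4 at the downstream and 7 at the upstream start. Among 32851 windows of 27025 genes 96.0% held at least 1 such core, with a median of 3, so that the window of Fyn is among the few with none. The upstream window of Syk, not shown, also held 0, and its downstream window 3. The longer letters GAGGAAGT, an ETS site of the PU.1 type, were in 3.2% of all windows and GGAANNGAAA, a composite ETS and IRF site, in 2.72%, both searched on both strands and both containing the core. Neither was in any of the 8 windows of these kinases. A match is a description of the letters and no measure of binding.

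In WT libraries the levels of these kinases were ordered differently in each population. In WT MPPs the order of mean FPKM was Syk, Lck, Lyn, Fyn, Fgr, Src, Blk and Yes1, and no neighbours in that order overlapped between libraries. In WT CLPs Syk was again first, at 82.43 to 91.74 FPKM, but Fyn, Lck, Blk and Lyn overlapped with their neighbours and Fgr stood next to them, overlapping with Lyn. Src and Yes1 were the lowest there, with no overlap between them. In WT CD115- CDPs Syk (47.26 to 56.28 FPKM) and Lyn (33.19 to 55.05 FPKM) overlapped, and so did Lyn with Fyn, Fyn with Lck, Lck with Blk, Blk with Fgr and Src with Yes1.

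Between WT CLPs and WT MPPs 6 of 8 genes passed as higher and 1 as lower in CLPs, against 10.7% and 14.4% of all 12528 genes tested. Of these, 3 were called, against 8.7% of all genes. The median log2 difference of the 8 genes was 0.85, and that of all genes -0.05. Between WT CD115- CDPs and WT MPPs 4 of 8 genes passed as higher in the CDPs, against 5.14% of all genes, and 0 as lower, against 16.8%. There 2 were called, against 6.98%. The WT CD115- CDPs differed from the WT CLPs in 4 of 8 genes, all lower in the CDPs (8.16% of all genes were lower and 2.71% higher), and 2 were called, against 3.0%. Each population has a table of its own, so that population and table cannot be told apart, and the 3 comparisons share libraries.

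Fgr (Entrez 14191, chr4:132974095-133001893 of GRCm38), a kinase of myeloid cells, had 3.76, 3.34 and 3.83 FPKM in WT MPPs, 11.28, 5.94 and 13.22 FPKM in WT CD115- CDPs and 38.22, 38.86 and 33.02 FPKM in WT CLPs. The 3 populations did not overlap, and CLPs, although named for their lymphoid fate, had the highest levels. CLPs exceeded MPPs by a log2 difference of 3.02 (SE 0.239, limma adjusted p = 5.28e-05), and CD115- CDPs exceeded MPPs by 1.2 (adjusted p = 0.00821). CD115- CDPs were lower than CLPs by 1.82 on the log2 scale (adjusted p = 0.00326). Without the library WT 3 the difference of CD115- CDPs from MPPs was 0.99.

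Lyn (Entrez 17096, chr4:3678068-3791612), which acts in both activating and inhibitory signalling of myeloid and B cells, had 23.34, 24.65 and 21.99 FPKM in WT MPPs, 35.17, 33.19 and 55.05 FPKM in WT CD115- CDPs and 49.97, 40.96 and 38.08 FPKM in WT CLPs. All MPP libraries lay below all others, while CDPs and CLPs overlapped. Lyn was higher than in MPPs by 0.85 in CLPs (adjusted p = 0.0121) and by 0.76 in CD115- CDPs (adjusted p = 0.0226). The first of these passed no longer without the library WT 3 of MPPs (adjusted p = 0.0519), and the second was lost without any 1 of the 3 WT MPP libraries (adjusted p = 0.0605 to 0.0877).

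Syk (Entrez 20963, chr13:52582610-52648792), the kinase that binds phosphorylated ITAMs, had 55.93, 56.61 and 49.26 FPKM in WT MPPs, 56.28, 53.98 and 47.26 FPKM in WT CD115- CDPs and 91.74, 91.68 and 82.43 FPKM in WT CLPs. MPPs and CDPs overlapped, and CLPs lay above both. CLPs exceeded MPPs by a log2 difference of 0.71 (SE 0.106, adjusted p = 0.00163), and CDPs lay below CLPs by a log2 difference of -0.75 (adjusted p = 0.00452).

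Fyn (Entrez 14360, chr10:39369743-39565381), a kinase of lymphocytes and neurons, had 20.40, 20.87 and 20.14 FPKM in WT MPPs, 37.77, 32.11 and 27.11 FPKM in WT CD115- CDPs and 68.64, 56.88 and 55.29 FPKM in WT CLPs. The 3 populations were in this order without overlap. Fyn was higher than in MPPs by 1.51 in CLPs (SE 0.138, adjusted p = 0.000106) and by 0.62 in CDPs (adjusted p = 0.0134), the latter no longer passing without WT CDP 1, WT MPP 1 or WT MPP 3 (adjusted p = 0.0512 to 0.0553). CDPs were below CLPs by a log2 difference of -0.88 (adjusted p = 0.00646).

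Lck (Entrez 16818, chr4:129548344-129573641), the kinase of the T cell receptor, had 31.95, 29.24 and 32.66 FPKM in WT MPPs, 35.32, 35.87 and 16.14 FPKM in WT CD115- CDPs and 49.52, 61.61 and 61.65 FPKM in WT CLPs. The third CDP library was below all MPP libraries, and CLPs were above all other WT libraries. CLPs exceeded MPPs by a log2 difference of 0.85 (adjusted p = 0.0470, and 0.0636 with the block), and it missed the threshold in 6 of the 9 fits that left out 1 WT library. CDPs differed from CLPs by -1.04 (adjusted p = 0.0427, and 0.0617 with the block), lost in 7 of 9 such fits, with adjusted p up to 0.136. Cd3e, the T cell receptor chain on which Lck acts, was near 0, at a mean of 0.197 FPKM in WT CLPs.

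Blk (Entrez 12143, chr14:63372837-63417187), the Src-family kinase of early B cells, had 1.74, 1.62 and 1.94 FPKM in WT MPPs, 34.09, 25.62 and 5.65 FPKM in WT CD115- CDPs and 60.90, 46.28 and 45.75 FPKM in WT CLPs. Of the 8 genes it had the largest log2 difference between WT CLPs and MPPs, 4.22 (SE 0.516, adjusted p = 0.000547). It was higher in CD115- CDPs than in MPPs by 2.73 (adjusted p = 0.00627), although the third CDP library was far below the other CDP libraries. CDPs and CLPs differed by -1.49 (adjusted p = 0.0943), and by -0.75 without that library (adjusted p = 0.00641).

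Src (Entrez 20779, chr2:157423906-157471838) and Yes1 (Entrez 22612, chr5:32611171-32687066), the broadly expressed members, were low. Src was 2.78 to 2.95 FPKM in WT MPPs, 0.47 to 2.67 FPKM in WT CD115- CDPs and 1.79 to 2.61 FPKM in WT CLPs, and Yes1 was 0.83 to 1.03, 0.23 to 0.79 and 0.31 to 0.48 FPKM. Only the log2 difference of Yes1 between CLPs and MPPs passed, at -0.47 (adjusted p = 0.0456, and 0.0629 with the block), and it was lost in 7 of the 9 fits without 1 WT library. At the depth estimated from the FPKM steps the lowest Yes1 value corresponds to as few as 10 reads.

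**Figure D1:**
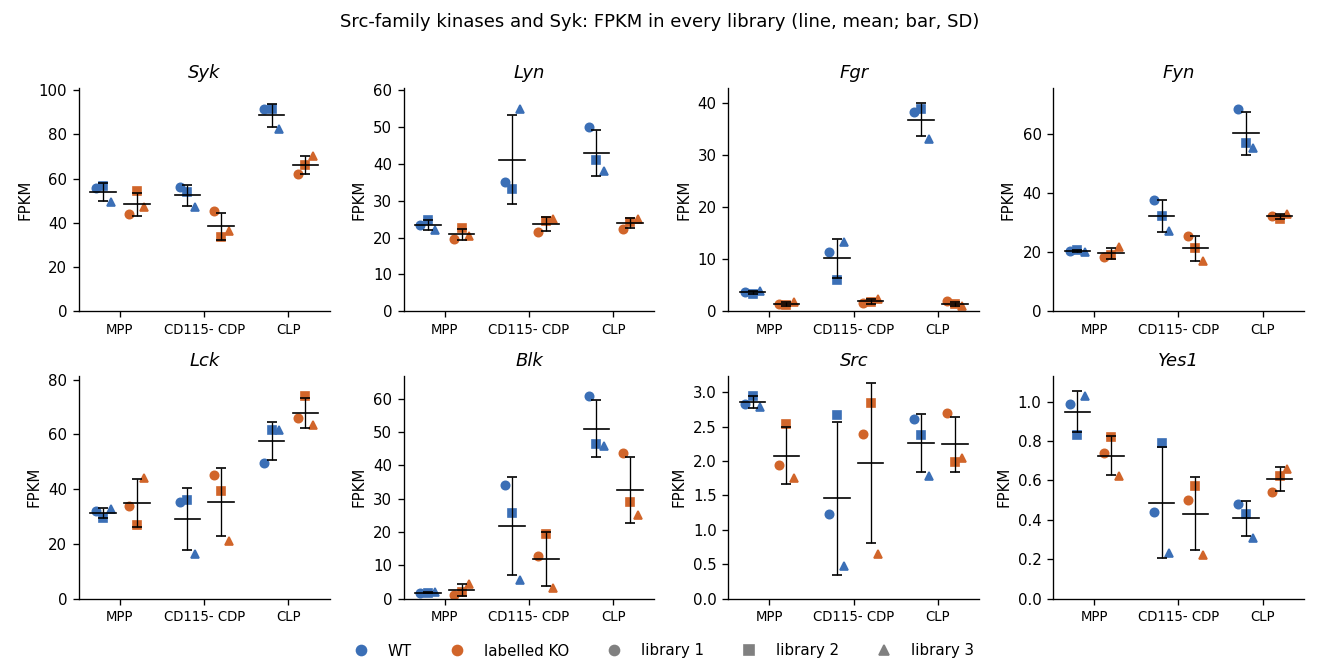
FPKM of Fgr, Lyn, Fyn, Lck, Blk, Src, Yes1 and Syk in the 18 libraries, one panel per gene on a linear axis from 0. Blue points are WT and orange points KO libraries, the marker shape gives the library number, lines are means and bars 1 SD (n = 3). Fgr is at 33.02 to 38.86 FPKM in WT CLPs and 1.06 to 1.87 FPKM in KO CLPs, while Lck is at 63.44 to 74.05 FPKM in KO CLPs.

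The comparison of KO with WT libraries asked which genes change in progenitors when Trim33 is deleted. In CLPs 4 of the 8 kinases fell, namely Fgr, Fyn, Lyn and Syk, against 8.92% of 12339 genes passing as lower. None passed as higher, against 5.41% of all genes. Fgr was the single call, against 3.52% of all genes. The median log2 difference of the 8 genes was -0.53, and that of all genes 0.01. With the block, which pairs libraries of one number, Blk also passed, giving 5 of 8 lower (12.5% of all genes), 0 higher (8.44%) and 1 called (3.86%). By range, all KO libraries lay below all WT libraries for 5 genes, against 18.6% of all genes, and above them for Lck and Yes1, against 15.3%.

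Fgr had 1.87, 1.43 and 1.06 FPKM in the KO CLPs, against 33.02 to 38.86 FPKM in WT. WT CLPs averaged 36.7 ± 3.20 FPKM and KO CLPs 1.45 ± 0.406 FPKM (SD, n = 3 each), a ratio of 25.3. The log2 difference was -3.95 (SE 0.146, limma adjusted p = 1.88e-06). It passed without any 1 library, at -3.83 to -4.07. In KO CLPs Fgr lay below Src in every library, whereas in WT CLPs it stood far above Src in each.

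Lyn had 22.31, 24.36 and 25.08 FPKM in the KO CLPs, all below the WT minimum of 38.08 FPKM. The log2 difference was -0.81 (SE 0.121, adjusted p = 0.00302), for means of 43.0 ± 6.20 and 23.9 ± 1.44 FPKM (SD, n = 3 each). Fyn had 32.24, 31.35 and 32.92 FPKM in KO against a WT minimum of 55.29 FPKM, with means of 60.3 ± 7.29 and 32.2 ± 0.787 FPKM. It fell by 0.88 on the log2 scale (SE 0.108, adjusted p = 0.0011). Both passed without any 1 library.

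Syk fell less, with 62.25, 66.24 and 70.16 FPKM in KO CLPs and 82.43 to 91.74 FPKM in WT, again without overlap. Its log2 difference was -0.41 (SE 0.0962, adjusted p = 0.0234). It no longer passed without KO 1 (adjusted p = 0.0777), KO 2 (0.0909) or WT 2 (0.0931), or after quantile normalization (0.0571).

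Blk had 43.83, 29.03 and 25.09 FPKM in KO CLPs against 60.90, 46.28 and 45.75 FPKM in WT. In both genotypes the library numbered 1 was the highest, and each KO library was below the WT library of its number. The log2 difference of -0.65 did not pass (SE 0.204, adjusted p = 0.0681), while with the block the SE was 0.106 and the adjusted p 0.00423. Without the library KO 1 it was -0.88 with an adjusted p of 0.0122.

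Lck had 66.09, 74.05 and 63.44 FPKM in KO CLPs, all above the WT values of 49.52, 61.61 and 61.65 FPKM. The log2 difference of 0.24 did not pass (95% interval -0.03 to 0.51, adjusted p = 0.224). The interval leaves out a decline of the size seen in Lyn or Fyn. Cd3e was 0 FPKM in every KO CLP library, and a list of 7 T and NK lineage genes summed to 2.07 to 2.43 FPKM in KO and 8.34 to 11.9 FPKM in WT CLPs. Of these 7 genes 3 were lower in all KO than in all WT CLP libraries, against 18.6% of all genes. The list holds Cd8a, which the study counts among cDC1-associated genes, so that its sum is no measure of T and NK cells alone. Src differed by -0.01 (95% interval -0.35 to 0.34) and Yes1 by 0.19 (adjusted p = 0.327), with Yes1 at 0.54 to 0.66 FPKM in KO and 0.31 to 0.48 FPKM in WT.

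In CD115- CDPs 0 of the 7 kinases tested passed in limma without the block. Few genes of any kind passed, 0.0654% of 12229 as lower and 0.0409% as higher, and 0.106% were called. With the block Fgr, Fyn and Lyn fell, 3 of 7, against 5.56% of all genes, and none passed as higher, against 3.78%. Fgr was called with the block, against 1.83% of all genes. All KO libraries were below all WT libraries for Fgr, Lyn, Fyn and Syk, against 10.6% of all genes, and for no kinase above them, against 7.68%. The median log2 difference of the 7 kinases was -0.58, and that of all genes -0.07. Yes1, at 0.22 to 0.79 FPKM, was below the minimum for testing.

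Fgr had 1.5, 1.75 and 2.44 FPKM in KO CD115- CDPs against 11.28, 5.94 and 13.22 FPKM in WT, with no overlap. WT libraries averaged 10.1 ± 3.77 FPKM and KO libraries 1.90 ± 0.487 FPKM (SD, n = 3 each). The log2 difference was -1.89, with an SE of 0.308 and an adjusted p of 0.149 without the block, and an SE of 0.201 and an adjusted p of 0.00886 with it. Leaving out both libraries numbered 3, which was chosen after seeing the data, gave -1.82 (SE 0.270, adjusted p = 0.0118). Fgr was then the single kinase to pass.

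Lyn had 21.54, 24.41 and 25.07 FPKM in KO against 35.17, 33.19 and 55.05 FPKM in WT CDPs. Its log2 difference was -0.74 (adjusted p = 0.367 without and 0.0344 with the block), and the library WT 3 was the highest by far. Fyn had 25.38, 21.58 and 17.02 FPKM in KO against 37.77, 32.11 and 27.11 FPKM in WT. In both genotypes Fyn ran from the library numbered 1 as the highest to that numbered 3 as the lowest. Its log2 difference was -0.58 (adjusted p = 0.423 without and 0.0248 with the block). Without both libraries numbered 3 the adjusted p was 0.0819 for Lyn and 0.102 for Fyn.

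Syk had 45.27, 33.70 and 36.35 FPKM in KO CDPs against 56.28, 53.98 and 47.26 FPKM in WT. The log2 difference of -0.45 missed the threshold (adjusted p = 0.423, and 0.0531 with the block). Blk had 12.75, 19.31 and 3.18 FPKM in KO against 34.09, 25.62 and 5.65 FPKM in WT. Each KO library was below the WT library of its number, but the groups overlapped, with adjusted p = 0.789 and, with the block, 0.0509. Lck had 45.24, 39.41 and 21.11 FPKM in KO against 35.32, 35.87 and 16.14 FPKM in WT, so that each KO library was above its WT partner. Its log2 difference of 0.28 did not pass (95% interval -0.68 to 1.25, adjusted p = 0.120 with the block). Src was 0.65 to 2.85 FPKM in KO and 0.47 to 2.67 FPKM in WT, an overlap.

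**Figure D2:**
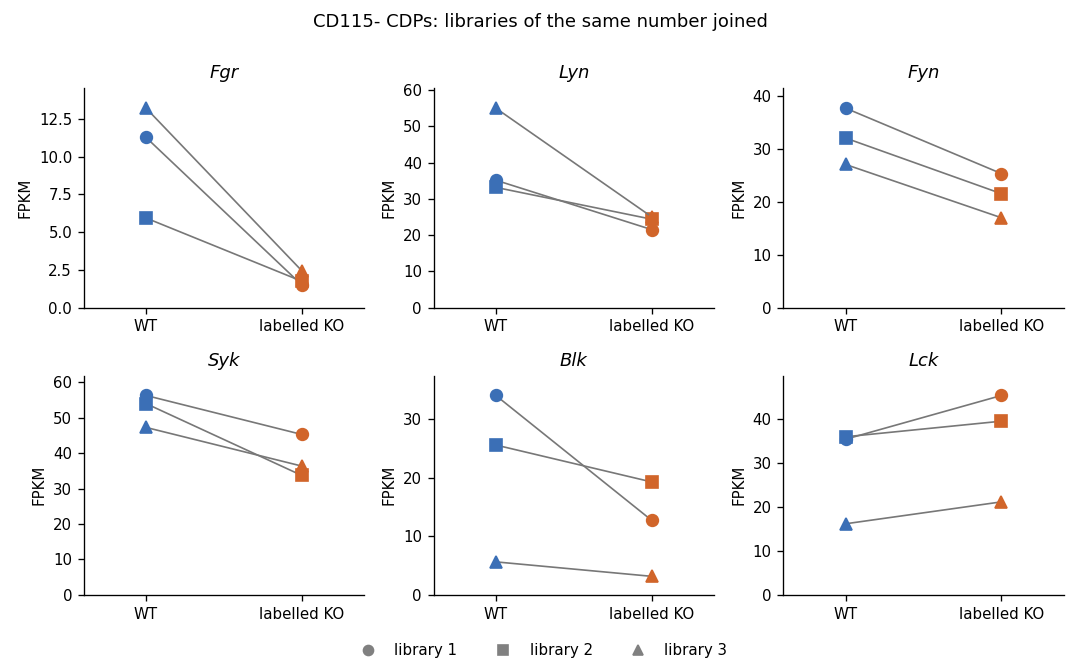
FPKM of Fgr, Lyn, Fyn, Syk, Blk and Lck in the 3 WT and 3 KO libraries of CD115- CDPs, with lines joining libraries of the same number. Every line falls from WT to KO for Fgr, Lyn, Fyn, Syk and Blk, and every line rises for Lck, whose difference passed neither with nor without the block.

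In MPPs 1 of the 8 kinases passed as lower, Fgr, against 3.52% of 12372 genes, and 0 as higher, against 0.315%. None was called, against 1.48% of all genes. The KO libraries lay below all WT libraries for Fgr, Src and Yes1, against 23.3% of all genes, and above them for none, against 6.98%. The median log2 difference of the 8 kinases was -0.16 and that of all genes -0.11, which moved to -0.01 after scaling by median ratios or quantile normalization.

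Fgr had 1.33, 1.11 and 1.86 FPKM in KO MPPs against 3.76, 3.34 and 3.83 FPKM in WT, without overlap. Its log2 difference was -0.94 (SE 0.149, adjusted p = 0.0260). Without KO 3 it was -1.06 (adjusted p = 0.00121) and was called. Leaving out any other MPP library ended the pass, with adjusted p of 0.0909 without KO 1, 0.0769 without KO 2, 0.166 without WT 1, 0.14 without WT 2 and 0.147 without WT 3. In these fits the log2 difference was -0.85 to -0.99. Of all genes 0.349% to 1.24% then passed as lower, against 3.52% with all libraries. Quantile normalization also ended the pass (-0.71, adjusted p = 0.0594).

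The kinases with the most transcript did not pass in MPPs. Syk had 43.82, 54.20 and 47.33 FPKM in KO against 49.26 to 56.61 FPKM in WT, Lyn 19.52, 22.59 and 20.42 FPKM against 21.99 to 24.65 FPKM, and Fyn 18.21, 18.91 and 21.64 FPKM against 20.14 to 20.87 FPKM. All 3 overlapped between genotypes. The 95% interval of the log2 difference was -0.42 to 0.11 for Syk, -0.40 to 0.09 for Lyn and -0.31 to 0.18 for Fyn.

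Lck and Blk set the library KO 3 of MPPs apart. Lck had 33.62, 26.75 and 44.20 FPKM in KO against 29.24 to 32.66 FPKM in WT, and Blk 1.12, 1.90 and 4.47 FPKM against 1.62 to 1.94 FPKM. The third KO library was the highest of all MPPs for both. Without it the log2 difference was -0.06 for Lck and -0.16 for Blk, and none of the kinases other than Fgr passed, although the count of all genes passing rose from 475 to 6717. Src had 1.95, 2.54 and 1.75 FPKM in KO against 2.78 to 2.95 FPKM in WT (log2 difference -0.33, adjusted p = 0.197), and Yes1 0.62 to 0.82 FPKM against 0.83 to 1.03 FPKM (-0.18, adjusted p = 0.328).

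**Figure D3:**
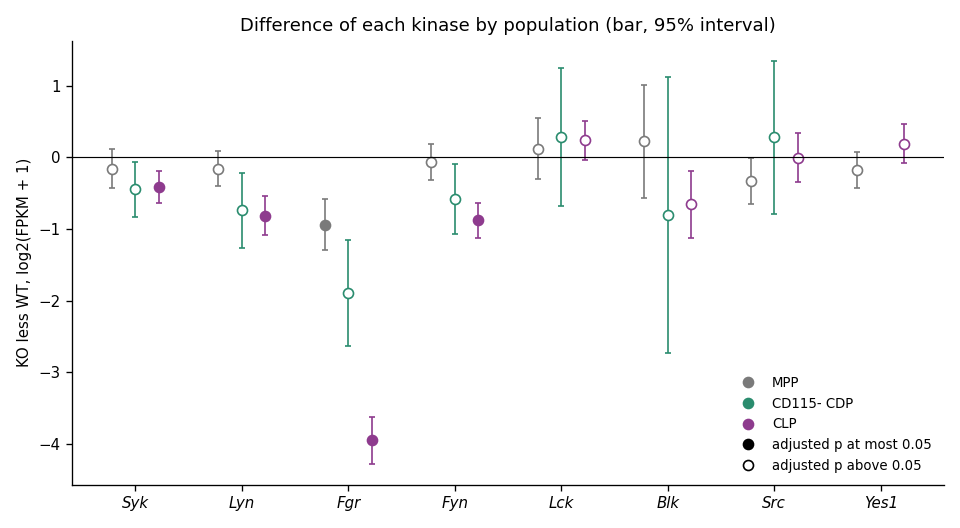
Log2 difference of KO from WT in log2(FPKM + 1) for the 8 kinases in MPPs, CD115- CDPs and CLPs, with 95% intervals from the fit without the block. Filled points have an adjusted p of at most 0.05. The interval of Fgr lies furthest below 0 in CLPs, around -3.95, and that of Lck includes 0 in each population.

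Whether the KO difference itself depended on the population was tested as an interaction over all 18 libraries. It passed for 1 of the 8 kinases, Fgr (F test of limma, adjusted p = 0.000131), against 2.45% of 12421 genes. The KO difference of Fgr was more negative in CLPs than in MPPs by a log2 difference of -3.01 (SE 0.319, adjusted p = 4.55e-05), and than in CD115- CDPs by -2.06 (SE 0.319, adjusted p = 0.00489). Between CD115- CDPs and MPPs it differed by -0.95 (adjusted p = 0.240). Over the 9 KO libraries Fgr was at 1.06 to 2.44 FPKM, and the 3 populations, which were separate in WT, overlapped in KO.

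Fyn also had a larger decline in CLPs than in MPPs, with a log2 difference of the differences of -0.81 (SE 0.202, adjusted p = 0.0350), and it lost the threshold without any 1 of 11 of the 18 libraries (adjusted p over all 18 fits 0.0141 to 0.0853). Thus 2 of 8 kinases passed for CLPs against MPPs, where 4.09% of all genes did, and 1 of 8 for CLPs against CD115- CDPs, where 0.394% did. The interaction F test of Fyn gave an adjusted p of 0.0943, and 0.0130 with the block, where 1077 of 12421 genes passed. Lyn had a difference of -0.66 between CLPs and MPPs (adjusted p = 0.117, and 0.0461 with the block). Without both CD115- CDP libraries numbered 3, Fgr, Fyn (adjusted p = 0.0126) and Lyn (0.0424) passed the F test. In that fit 873 of 12419 genes passed, against 304 of 12421 with all libraries. No difference between populations passed for Lck, Blk, Syk, Src or Yes1.

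The make-up of the family by transcript followed from these levels. The 7 Src-family kinases summed to 84.3 ± 0.758 FPKM in WT MPPs, 136 ± 18.7 FPKM in WT CD115- CDPs and 251 ± 17.5 FPKM in WT CLPs (SD, n = 3 each). In KO libraries the sums were 82.0 ± 11.2, 96.3 ± 23.0 and 161 ± 9.79 FPKM. Fyn made up 24.3%, 23.6% and 23.9% of the sum in WT MPPs, CDPs and CLPs. In CLPs the share of Fgr was 14.6 ± 0.949% in WT and 0.895 ± 0.2% in KO, and that of Lck 23.1 ± 4.20% in WT and 42.2 ± 3.25% in KO. Neither share overlapped between genotypes. Lyn was 0.618 to 1.01 times the FPKM of Lck in WT CLPs and 0.329 to 0.395 times in KO CLPs. In WT CD115- CDP 3 this ratio was 3.41, the highest of all libraries. These shares were not tested, because a share changes whenever another member does.

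**Figure D4:**
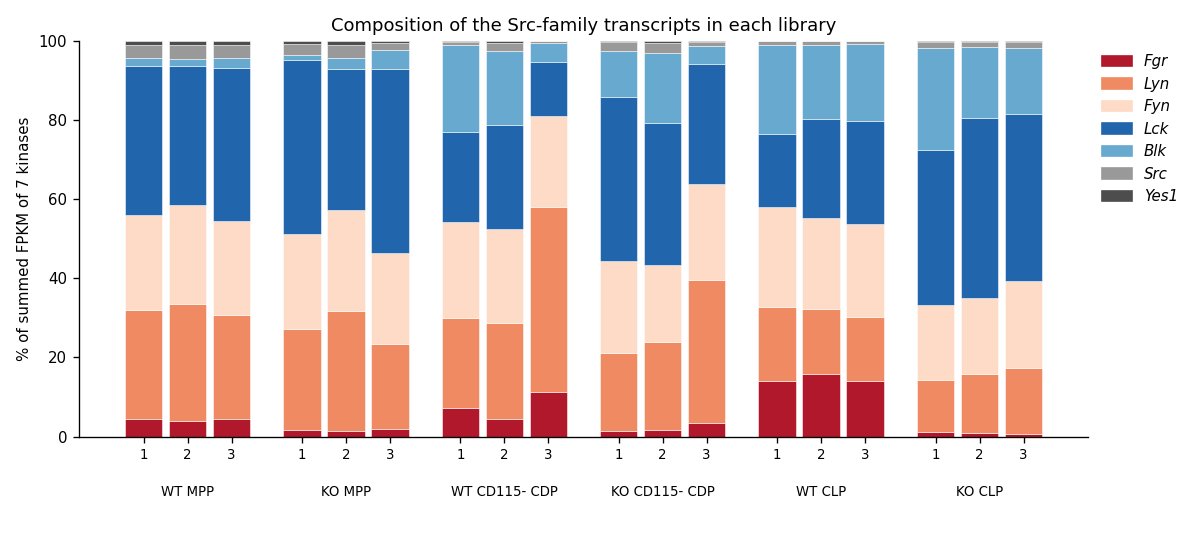
Share of each Src-family kinase in the summed FPKM of the 7 genes, in percent, for each of the 18 libraries. The Fgr segment averages 14.6% in WT CLPs and 0.895% in KO CLPs, and the Lck segment 23.1% and 42.2%.

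The genes around these kinases were described by 6 lists with 102 genes, covering ITAM adaptors and receptors, ITIM receptors, inhibitors and phosphatases, phosphatases that activate the kinases, adaptors and effectors, and other cytoplasmic tyrosine kinases. In CLPs 31 of the 88 genes tested fell and 8 rose, against 8.92% and 5.41% of all genes. The median log2 difference of the list genes was -0.23, against 0.01 for all genes. In MPPs 10 of 92 fell and 1 rose, against 3.52% and 0.315% of all genes, with a median of -0.21 against -0.11. However, 46 fell and 9 rose without KO 3, and 0 fell without WT 2 or WT 3. In CD115- CDPs 0 of 96 passed in limma without the block, where 0.0654% of all genes passed as lower and 0.0409% as higher. With the block 26 fell and 3 rose, against 5.56% and 3.78% of all genes. Without both libraries numbered 3, 11 of 91 fell and 2 rose. Without KO 3 of MPPs 38.8% of all genes passed as lower and 15.5% as higher, and without both CDP libraries numbered 3 these shares were 1.78% and 0.894%. Without WT 2 or WT 3 of MPPs only 0.381% or 0.349% of all genes passed as lower. For the other counts they are given above.

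ITAM adaptors and receptors are the partners of Syk. Of the 10 tested in CLPs 4 fell, against 8.92% of all genes, and 1 rose, against 5.41%. Tyrobp, the DAP12 adaptor on which Syk docks, averaged 402 ± 41.9 FPKM in WT CLPs against 53.9 ± 12.9 FPKM in KO CLPs (SD, n = 3 each, log2 difference -2.90, adjusted p = 2.37e-05). Siglech, a DAP12-coupled receptor of plasmacytoid DCs, fell from 169 to 8.67 FPKM (-4.11, adjusted p = 2.73e-06), and Clec9a, a Syk-coupled receptor of cDC1s, from 3.77 to 0.01 FPKM (-2.21, adjusted p = 0.000119). In CD115- CDPs the same 3 genes passed with the block, Siglech at -2.90 (adjusted p = 0.00262), Tyrobp at -1.69 (0.00203) and Clec9a at -2.31 (0.0210). They were among 5 ITAM genes of 17 that fell there, against 5.56% of all genes. In MPPs 4 of 12 fell, against 3.52% of all genes. Clec7a, the Syk-coupled receptor for beta-glucan, was the call there, with means of 2.44 FPKM for WT and 0.49 FPKM for KO (-1.21, adjusted p = 0.00644).

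ITIM receptors moved in both directions. In CLPs 8 of 15 fell, against 8.92% of all genes, and 1 rose, against 5.41%. Pirb, an inhibitory receptor that Lyn phosphorylates, fell from 16.6 to 0.74 FPKM (-3.32, adjusted p = 9.37e-06), Cd22, the inhibitory lectin of B cells, from 8.96 to 0.873 FPKM (-2.40, adjusted p = 3.94e-05), and Lair1, a collagen receptor, from a WT range of 11.12 to 15.44 FPKM to a KO range of 1.48 to 2.78 FPKM (adjusted p = 0.000135). Fcgr2b, the inhibitory Fc receptor, was at 20.76 to 22.39 FPKM in WT CLPs and rose to between 137 and 183 FPKM in KO CLPs (2.86, adjusted p = 3.96e-06). It also rose in MPPs, from 12.3 to 121 FPKM (3.18, adjusted p = 0.000366), and with the block in CD115- CDPs, from 19.8 to 128 FPKM (2.80, adjusted p = 0.00528). Fcgr2b was the single ITIM gene of 15 to rise in MPPs, against 0.315% of all genes. There 2 fell, against 3.52%, among them Pirb (-1.04, adjusted p = 0.0409, and 0.0543 with the block). In CD115- CDPs 6 of 16 fell with the block, against 5.56% of all genes. Among them were Cd22 (-2.38, adjusted p = 0.0110), Cd300a (-1.22, 0.00748) and Lair1 (-1.16, 0.0111).

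Downstream of the kinases, 10 of 26 adaptors and effectors fell in CLPs and 3 rose, against 8.92% and 5.41% of all genes. Pik3ap1 (BCAP), which couples receptors to PI3 kinase, fell from 68.0 to 24.5 FPKM (-1.43, adjusted p = 0.000225), and Fyb (ADAP), an adaptor of integrin activation, from 37.7 to 13.6 FPKM (-1.38, adjusted p = 0.00218). In MPPs 1 of 26 fell, near the 3.52% of all genes. With the block 7 fell in CD115- CDPs, against 5.56% of all genes, and 1 rose, against 3.78%. Among those that fell was Nfam1, an ITAM-bearing receptor (-1.06, adjusted p = 0.0165). Of the genes that restrain or release the kinases, none of the 19 inhibitors and phosphatases or the 4 activating phosphatases was called in any population. The share of all genes called was 3.52% in CLPs, 1.48% in MPPs, 0.106% in CD115- CDPs and 1.83% there with the block. The absence of calls therefore says little about so few genes. In CLPs 2 of the 19 fell and 1 rose, near the shares of all genes (8.92% and 5.41%), and 2 of the 4 fell.

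Among 14 other cytoplasmic tyrosine kinases tested in CLPs 5 fell and 2 rose, against 8.92% and 5.41% of all genes. In MPPs 2 of 16 fell, against 3.52% of all genes, and in CD115- CDPs 4 of 14 fell with the block, against 5.56%. The study lists Fgr, Siglech, Tyrobp, Clec9a, Clec7a, Pirb, Cd22, Lair1, Cd300a and Nfam1 among genes it chose as lower in these libraries, so that their direction is no independent evidence.

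**Figure D5:**
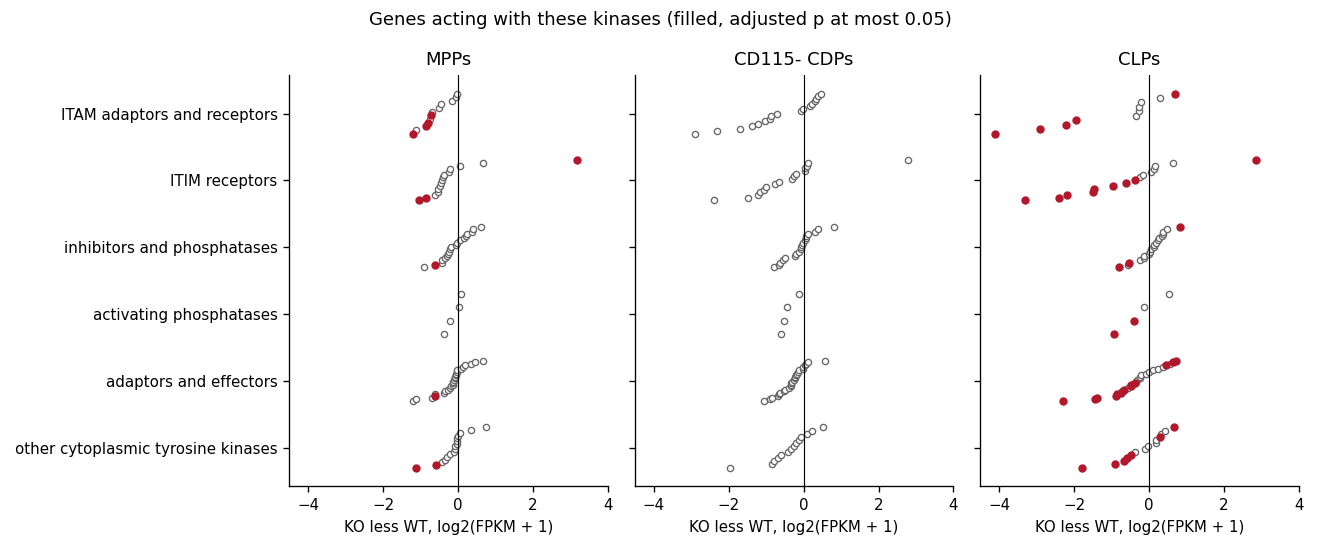
Log2 difference of KO from WT for the tested genes of the 6 pathway lists in MPPs, CD115- CDPs and CLPs. Each point is a gene, filled where the adjusted p is at most 0.05 without the block, and points are spread vertically in order of value. The point furthest to the right in each population is Fcgr2b, at 3.18 in MPPs, 2.80 in CDPs and 2.86 in CLPs.

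Markers of other cell types moved with some of these differences. In CLPs 6 of 7 DC genes were lower in all KO than in all WT libraries, against 18.6% of all genes. The DC list summed to 797 to 885 FPKM in WT and 93.0 to 105 FPKM in KO, with Clec9a at 0 to 0.03 FPKM in KO. Also lower throughout were 6 of 7 monocyte and macrophage genes, with sums of 255 to 328 FPKM in WT and 64.0 to 107 FPKM in KO. The same held for 6 of 8 erythroid genes, with sums of 34.4 to 56.3 FPKM in WT and 5.6 to 9.84 FPKM in KO. The 9 B lineage genes summed to 325, 643 and 901 FPKM in WT CLPs 1 to 3 and 294, 626 and 632 FPKM in KO CLPs 1 to 3, an overlap. Of these 0 were lower throughout and 2 higher. In both genotypes the library numbered 1 had the lowest B lineage sum, whereas it was the highest for Blk. In CD115- CDPs the DC genes summed to 295 to 403 FPKM in WT and 121 to 143 FPKM in KO. Of these 6 of 7 were lower throughout, as were 6 of 7 T and NK lineage genes, against 10.6% of all genes. The monocyte genes of these CDPs summed to 338, 234 and 2309 FPKM in WT and 136, 116 and 396 FPKM in KO. Each KO sum was below the WT sum of its number, but only 1 of 7 monocyte genes was lower throughout. In MPPs the monocyte genes summed to 558 to 576 FPKM in WT and 164 to 240 FPKM in KO. All 7 were lower throughout, against 23.3% of all genes. So were 5 of 8 neutrophil genes, 7 of 8 erythroid genes, 5 of 5 basophil and mast cell genes and 7 of 9 B lineage genes. The count was 4 of 7 for DC genes, 5 of 7 for T and NK lineage genes and 3 of 5 for megakaryocyte and platelet genes. The erythroid sums were 361 to 390 FPKM in WT and 32.2 to 58.3 FPKM in KO MPPs. The part of these cell types in the values of the kinases was not tested.

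Across the 18 libraries the genes whose log2(FPKM + 1) ran most like that of each kinase were found among 8525 candidates averaging 5 FPKM or more. The points share populations and library numbers, and the correlations are descriptions. For Fgr these were Cyth4 (r = 0.979), Sp140 (0.972) and Phf19 (0.972), and for Blk Blnk (0.978), Ly6d (0.962) and St6gal1 (0.96), of which Blnk is an adaptor phosphorylated by Syk in B cells and Ly6d a surface marker of B-committed CLPs. For Fyn they were Vav2 (0.97), an exchange factor phosphorylated by Src-family kinases, Npc1 (0.965) and Rpgrip1 (0.962). For Lyn they were Tmem55b (0.955), Psap (0.953) and Ppfia4 (0.952), for Lck Arpp21 (0.957), Bfsp2 (0.947) and Cd37 (0.944), and for Syk Cds2 (0.962), Ptprs (0.951) and Fam168b (0.938). Among the kinases themselves r was 0.876 for Fgr and Lyn, 0.865 for Fyn and Blk and 0.85 for Fyn and Syk, but 0.085 for Fgr and Lck and -0.09 for Lyn and Lck.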

How the data were processed

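RNA-seq of sorted MPPs, CD115- CDPs and CLPs was used, with 3 WT and 3 KO libraries in each. The authors cleaned the reads (single-end, 50 bases) with SOAPnuke, aligned them (HISAT2 2.0.4 to mm10, Bowtie2 2.2.5) and deposited FPKM per gene from RSEM 1.2.12, rounded to 2 decimals. No read counts were used here, so the authors' tests, which need them, were not repeated. Steps between low FPKM values placed the depth at 19.18 to 21.15 M reads per library, an inference that no count checks.

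Genes averaging 0.5 FPKM or more were tested on log2(FPKM + 1) with limma 3.58.1 (lmFit and eBayes with a trend, R 4.3.3) in each population, over the 9 WT libraries for the WT populations and over all 18 libraries for the interaction, with Benjamini-Hochberg adjustment. A second fit took the library number as a block. The numbers come from the labels. Deviations of same-numbered WT and KO libraries correlated at 0.437, 0.671 and 0.79 in CD115- CDPs and at 0.4, 0.329 and 0.131 in CLPs. Libraries of different numbers reached 0.663 in CDPs (WT 2 with KO 1) and 0.234 in CLPs (WT 3 with KO 2). In CDPs the correlations set the libraries numbered 3 apart but do not separate numbers 1 and 2. Both populations were read as paired by the labels, an assumption on which the results with the block rest. P-values set each difference against the spread between libraries of 3 biological repeats, which limma moderates over all genes. With the block that spread is what remains after the library number. The fits were tested on simulated data.

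Alternatives were a pseudocount of 0.1, no filter or a filter at 5 FPKM, TPM, median ratio scaling, quantile normalization, no trend, the block, no minimum fold change and leaving out each library. Leaving out both CD115- CDP libraries numbered 3 was added after seeing the data. The 8 kinases and all lists were chosen with earlier results of these data known. Named were the 8 kinases, Trim33, in each list, population and direction the 3 called genes of largest change, the 3 genes most like each kinase above 5 FPKM, and markers that moved with a result. Results for some genes of the lists are not reported here.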

Additional observations from a re-analysis of the deposited data

Results flagged for a closer look

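The difference of KO from WT in Fgr was not the same in the 3 populations, by the F test of population by genotype in limma over 18 libraries (adjusted p = 0.000131). The difference was more negative in CLPs than in MPPs by -3.01 and than in CD115- CDPs by -2.06 on the log2 scale. For Fyn the KO difference was more negative in CLPs than in MPPs by -0.81, with an adjusted p that missed the threshold in 11 of the 18 fits that left out 1 library. With 3 libraries in a group no single library was tested as an outlier.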

How the results depend on the processing

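The fall of Fgr, Fyn and Lyn in CLPs and the interaction of Fgr kept their direction and side of the threshold under the alternatives that could be run. Over the log2 differences of KO from WT, 292 alternative values kept both, 10 lost the threshold, 7 gained it and 11 turned in direction. The turned ones, none past the threshold, were Fyn in MPPs (0.0506 with median ratio scaling), Yes1 in MPPs (0.0174 with quantile normalization), Src in CLPs (0.0463 with quantile normalization), and 5 results leaving out 1 library. The latter were Lck and Blk in MPPs, at -0.0572 to 0.295 and -0.156 to 0.527 with the lowest value without KO 3, Lck and Src in CD115- CDPs, at -0.0821 to 0.605 and -0.0388 to 0.659 with the lowest without WT 3, and Src in CLPs, at -0.11 to 0.0719. The cause was not tested. The kinases called in MPPs went from 0 to 1 with TPM, a pseudocount of 0.1 or no minimum fold change, and were 0 to 1 leaving out 1 library. In CD115- CDPs they went from 0 to 1 with the block and without both libraries numbered 3. With no minimum fold change they went from 1 to 4 in CLPs, from 3 to 7 for WT CLPs against MPPs, from 2 to 4 for WT CD115- CDPs against MPPs and from 2 to 4 for WT CD115- CDPs against CLPs. For WT CD115- CDPs against MPPs they were 1 without both libraries numbered 3 and 1 to 2 leaving out 1 library. For WT CD115- CDPs against CLPs they were 1 with median ratio scaling, no filter, quantile normalization, the block or without those libraries, and 1 to 2 leaving out 1 library. The interaction passed for 1 kinase and 304 of 12421 genes, and with the block for 2 kinases and 1077 genes. It passed for 3 kinases and 873 of 12419 genes without both libraries numbered 3. Leaving out 1 library it passed for 1 to 2 kinases and 154 to 667 genes.

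Over all genes, calls in CD115- CDPs were 13, but 224 with the block, 223 without both libraries numbered 3, 6 with no filter and 0 to 10 leaving out 1 library (0 without KO 1, WT 1 or WT 2, and 1 without KO 2). Calls in MPPs were 183, 74 with a filter at 5 FPKM, 112 with quantile normalization and 54 to 916 leaving out 1 library, the highest without KO 3, when 38.8% of genes passed as lower and 15.5% as higher. Calls in CLPs were 434 and 283 with a filter at 5 FPKM. Genes passing as lower and higher were 14.4% and 10.7% for WT CLPs against MPPs, but 10.2% and 14.1% with TPM. For WT CD115- CDPs against MPPs 16.8% and 5.14% became 12.2% and 8.3% with quantile normalization. The MPP libraries of one number correlated at 0.038, 0.482 and 0.472 and the WT populations at -0.195 to 0.381. Their numbers were not read as pairs, although the MPP values for numbers 2 and 3 exceed the highest of CLPs (0.4). With the block Fgr in MPPs still passed (adjusted p = 0.0455) and genes passing in MPPs went from 475 to 297. With 3 libraries a group, a transcript as low as Yes1 allows no firm statement.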
